A study of Sus scrofa with 2 samples.

Results

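Among the stromal cells of pig back muscle, a small set of cell barcodes carried transcripts of HHIP, ART4 or both. They were chosen by a rule on their own counts. A barcode needed at least 500 detected genes, at least 50 UMIs (unique molecular identifiers, each counting 1 captured transcript) per 10000 of the stromal genes DCN, LUM and MFAP5 summed, and at least 2 raw UMIs of HHIP and ART4 summed. It also had to hold fewer than 3 UMIs per 10000 of the nerve-sheath genes CLDN1, ITGB4 and ANGPTL7 summed, and fewer than 3 per 10000 of the tendon gene TNMD. The rule found 278 of 12286 barcodes in the library of the Guangdong breed (GDSS) and 65 of 14695 in that of the Yorkshire breed, 343 of 26981 in all, and these are called the members below. They were compared within each library with all other barcodes that passed the stromal gate, 8318 and 2355 in number.

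The cells came from the longissimus dorsi, a long back muscle, of Yorkshire piglets and of piglets of the Guangdong small-eared spotted pig (GDSS). The labels call them intramuscular vascular stem cells, and the series contrasts breeds that differ in intramuscular fat content. Both preparations started from 1 g of muscle per piglet, passed through red-cell lysis and magnetic removal of dead cells, and went onto the 10x Genomics platform. No agent or altered allele is named, the title of both libraries gives the stage as P0 without explaining it, and no source used here gives the sex of the piglets or how many went into a library. With 1 library per breed there was no test: all intervals below are exact 95% intervals that cover counting error only, and breed cannot be told apart from animal, preparation or library.

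Hedgehog signalling starts when a secreted ligand (SHH, IHH or DHH) binds the receptor PTCH1 and so releases the transducer SMO, which acts through the GLI transcription factors. GLI1, PTCH1 and HHIP are themselves induced by the pathway and serve as its usual readout, and HHIP (hedgehog-interacting protein) binds the ligands at the cell surface and dampens the signal. In muscle and fat stroma the pathway is known for restraining the turn of progenitors towards adipocytes. ART4, the carrier of the Dombrock blood group, is a surface protein of the ADP-ribosyltransferase family with no known place in that pathway.

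The name hedgehog-responsive was borne out only in part. GLI1 was higher in GDSS members than in other stromal barcodes, but no higher than in those over the nerve-sheath limit, and in Yorkshire members it rested on 4 UMIs. In both libraries GLI1 was higher in barcodes with HHIP and no ART4 than in those with neither gene. SFRP4 went with ART4 and not with HHIP, but 3 members held 71.9% of its UMIs in GDSS and 83.3% in Yorkshire. RBP4 differed little in GDSS, and PSAT1 had the highest fold shared by both libraries. The members are therefore called HHIP- or ART4-positive stromal barcodes here, which describes the rule and names no cell type.

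The members carried stromal markers, as the rule required. DCN, the small proteoglycan used by the rule, stood at 5874 CPM (UMIs of the gene per 1000000 UMIs of the summed barcodes) in GDSS and 5812 in Yorkshire members, against 7605 and 6642 in the others. COL3A1, the fibrillar collagen that the rule did not use, stood at 11287 against 8879 (1.27-fold) and at 12434 against 7494 (1.66-fold).

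Depth bears on the choice, since a raw count of 2 UMIs is reached more easily in a deeper barcode. Members held a median of 4162 UMIs in GDSS and 4602 in Yorkshire, against 3047.5 and 3928 in the other stromal barcodes. The members' UMIs summed to 1345976 in GDSS and 327246 in Yorkshire, so Yorkshire values carry the wider error. Median mitochondrial shares were 3.43% and 3.77% in members and 3.95% and 3.72% in the others. Both libraries shared 47 barcode sequences and none of them was a member in both. At the edge of the rule, 154 GDSS and 31 Yorkshire members held exactly 2 UMIs, while 548 and 92 barcodes within the limits held exactly 1 and were left outside. A further 54 and 17 stromal barcodes reached 2 UMIs but exceeded a limit, 48 and 15 of them through the nerve-sheath genes.

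Members made up 3.23% of GDSS stromal barcodes (2.87 to 3.63) and 2.69% of Yorkshire ones (2.08 to 3.41). When every barcode was first thinned at random to 1500 UMIs, and 601 and 110 shallower ones were set aside, the shares were 0.913% (0.716 to 1.15) and 1.04% (0.667 to 1.54). The interval of each library covered the share of the other in the thinned comparison.

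HHIP and ART4 chose the members, so their levels are given as a description. HHIP ran from 0 through a median of 1 to 11 UMIs per member in GDSS, and from 0 through 2 to 25 in Yorkshire. ART4 ran from 0 through 2 to 8 and from 0 through 1 to 5. HHIP was seen in 151 of 278 GDSS and 42 of 65 Yorkshire members, and ART4 in 195 and 38. Most members thus held only one of the genes: 83 GDSS and 27 Yorkshire members had HHIP without ART4, 127 and 23 had ART4 without HHIP, and 68 and 15 had both. HHIP stood at 253 CPM in GDSS members and 431 CPM in Yorkshire members, against 12.0 and 11.8 in the others, and ART4 at 322 and 229 against 14.5 and 6.71.

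Taken over all stromal barcodes within the limits, HHIP was found more often where ART4 was found. In GDSS it was detected in 68 of 557 barcodes with ART4 (12.2%, 9.61 to 15.2) and in 269 of 6791 without (3.96%, 3.51 to 4.45). In Yorkshire it was detected in 15 of 93 with ART4 (16.1%, 9.32 to 25.2) and in 64 of 1764 without (3.63%, 2.80 to 4.61). Barcodes with ART4 were also deeper, with medians of 3742 against 2993 UMIs in GDSS and 4621 against 3630 in Yorkshire, and the part of depth in this difference was not tested.

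Barcodes of other classes gave the background for these shares. Macrophage-gated barcodes, chosen by their markers outside the stromal gate and deeper than the members (medians of 5797 and 7358 UMIs), held no HHIP UMI in 346 GDSS and 164 Yorkshire barcodes, with exact intervals reaching 1.06% and 2.22%. ART4 was detected in 5 of 346 (1.45%) and 1 of 164 (0.61%) of them. Other classes gave more HHIP: it was detected in 6 of 569 satellite-gated (1.05%) and 3 of 266 endothelial-gated barcodes (1.13%) in GDSS, and in 69 of 4681 (1.47%, 1.15 to 1.86) and 22 of 1774 (1.24%, 0.779 to 1.87) in Yorkshire, at medians of 2146, 2722.5, 2975 and 3297.5 UMIs. Among all stromal barcodes HHIP was detected in 5.01% and 5.33% and ART4 in 7.13% and 4.30%, above these classes in both libraries. After thinning to 1500 UMIs HHIP was detected in 2.55% and 2.42% of stromal barcodes, in none of 339 and 161 macrophage-gated ones, and in at most 0.971% of satellite-gated or endothelial-gated ones. Stromal barcodes over the nerve-sheath limit, which the rule leaves out, held HHIP more often still, at 84 of 805 (10.4%) in GDSS and 42 of 290 (14.5%) in Yorkshire.

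No hedgehog ligand was counted in the members. SHH, IHH and DHH each gave 0 UMIs in members of both libraries, where 3 counts, the limit that a count of 0 allows, would be 2.23 CPM in GDSS and 9.17 in Yorkshire. SHH and IHH were also at 0 in all other stromal barcodes, where DHH gave 11 UMIs in GDSS and 1 in Yorkshire. DHH, the ligand that Schwann cells are known to make, stood at 16.6 CPM in glia-gated barcodes of GDSS (12 UMIs) and 53.4 in those of Yorkshire (54 UMIs).

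Receptors and transducers were partly higher in GDSS members. Of the 14 listed genes found in the files, 8 besides HHIP had enough counts in GDSS (20 or more UMIs in the members, counting those the other barcodes' level predicts) and 3 of these were at least 1.5-fold higher and 0 lower. Over all 7793 such genes, 7.69% were at least 1.5-fold higher and 3.58% lower. The list's median log2 ratio was 0.33 against 0.07 over all genes. CDON, a ligand co-receptor, stood at 16.3 CPM in GDSS members and 8.41 in the others (1.94-fold, 1.20 to 3.01). SMO, the transducer, stood at 30.5 against 17.5 (1.74-fold, 1.24 to 2.40), and KIF7, a kinesin of the cilium, at 27.5 against 16.5 (1.66-fold, 1.16 to 2.32). BOC, the sister co-receptor of CDON, was level at 26.7 in both sets.

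PTCH1, the main receptor and a standard target, did not follow this pattern. It stood at 18.6 CPM in GDSS members and 12.9 in the others (1.44-fold, 0.921 to 2.16), and at 36.7 and 36.8 in Yorkshire (0.995-fold, 0.510 to 1.76). The other stromal barcodes include those over the nerve-sheath limit, which held PTCH1 at 51.6 CPM in GDSS and 175 in Yorkshire. Against only those others that also met the limits, PTCH1 was 1.96-fold higher in GDSS members and 2.31-fold higher in Yorkshire members.

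In Yorkshire 3 listed receptor and transducer genes besides HHIP had enough counts, and 0 were 1.5-fold higher or lower. Over all 3927 genes with enough counts there, 10.9% were at least 1.5-fold higher and 5.5% lower. SMO gave 11 member UMIs (33.6 against 18.5 CPM, 1.82-fold, 0.892 to 3.32) and CDON 13 (39.7 against 14.6, 2.71-fold, 1.41 to 4.78). Both counts fell short of the threshold, and only the interval of CDON lay above 1.

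GLI1, the most direct readout of the pathway, stood at 19.3 CPM in GDSS members (26 UMIs in 25 members) and at 7.17 in the others (2.70-fold, 1.72 to 4.06). In Yorkshire 4 members held 1 UMI each, 12.2 against 10.5 CPM (1.17-fold, 0.312 to 3.07), an interval that covers both no difference and the GDSS fold. Barcodes over the nerve-sheath limit held GLI1 at 19.7 CPM in GDSS (14.7 to 25.9), level with the members, and at 52.9 in Yorkshire (41.6 to 66.3), above them. Against others within the limits, at 6.61 and 4.61 CPM, members were 2.92-fold higher in GDSS and 2.65-fold in Yorkshire, where the members' interval of 3.33 to 31.3 CPM covers the others' level. GLI3, mostly a repressor when ligand is absent, stood at 25.3 against 16.2 in GDSS (1.56-fold, 1.07 to 2.21) and at 18.3 against 19.1 in Yorkshire. GLI2, the main activator, stood at 8.92 against 10.7 in GDSS and at 33.6 against 14.2 in Yorkshire (2.37-fold, 1.16 to 4.37, 11 UMIs). GLI2 and GLI3 thus gave no common direction across the libraries.

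Of the transcription factors and targets found in the files, 22 of 24 listed, 14 had enough counts in GDSS members, with 7 at least 1.5-fold higher and 1 lower and a median log2 ratio of 0.60. In Yorkshire 5 had enough counts, with 2 higher and 0 lower and a median of 0.52, against 0.09 over all genes. Over all genes 7.69% were at least 1.5-fold higher and 3.58% lower in GDSS, where the median was 0.07, and 10.9% and 5.5% in Yorkshire. OSR2, an odd-skipped factor of connective tissue, stood at 63.2 against 42.7 in GDSS (1.48-fold, 1.17 to 1.84) and at 104 against 51.3 in Yorkshire (2.03-fold, 1.39 to 2.87). OSR1, its relative and a mark of muscle connective tissue progenitors, stood at 11.1 against 5.06 in GDSS (2.20-fold, 1.20 to 3.75), with 3 UMIs in Yorkshire members. NR2F2, an orphan nuclear receptor, stood at 40.1 against 23.2 in GDSS (1.73-fold, 1.29 to 2.28) and at 91.7 against 63.9 in Yorkshire (1.43-fold, 0.960 to 2.07). CCND2, a D-type cyclin of the cell cycle, stood at 146 against 121 in GDSS and at 226 against 149 in Yorkshire (1.52-fold, 1.18 to 1.92). The other GDSS genes past 1.5-fold were NR2F1, the sister of NR2F2 (1.60-fold, 1.16 to 2.16, 5 UMIs in Yorkshire), CYP26B1, which breaks down retinoic acid (2.19-fold, 16 UMIs), and SPP1, at 3.12-fold with 76 of its 109 UMIs in 1 barcode. CCND1, another D-type cyclin, was the lower one (0.577-fold, 0.305 to 0.995, 13 UMIs), and BMP4, a ligand often induced by hedgehog, did not pass 1.5-fold in either library.

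**Figure D1:**
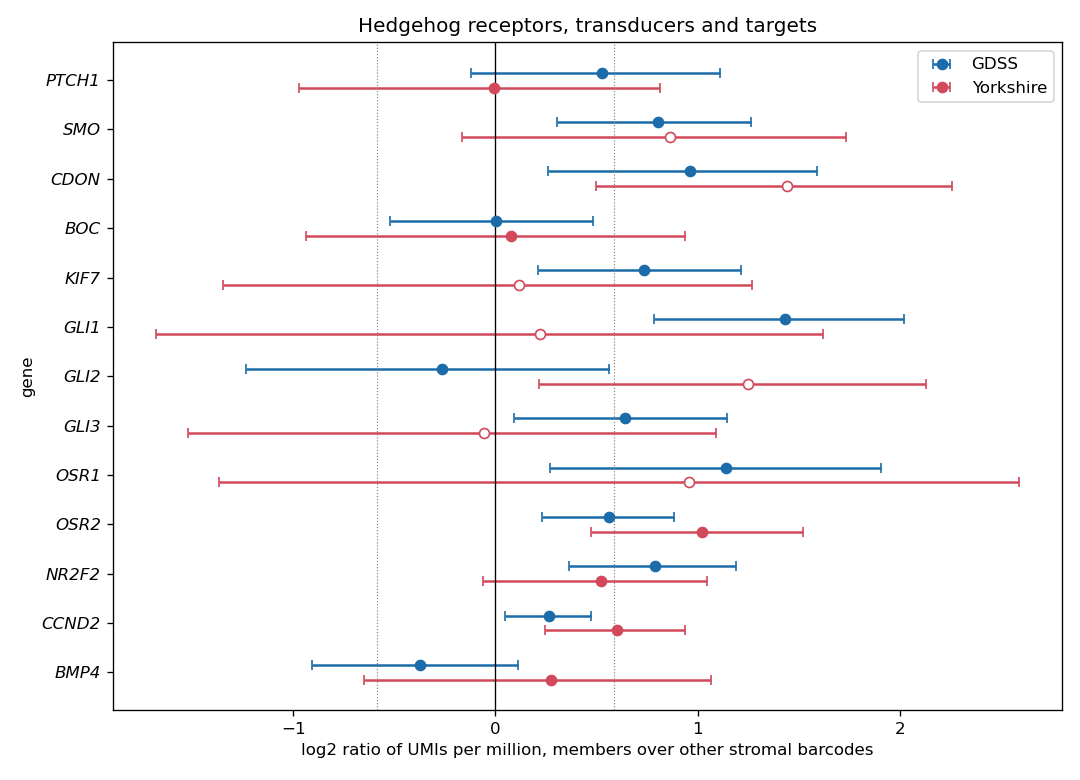
Log2 ratio of CPM in members over other stromal barcodes for 13 hedgehog genes, with exact 95% counting intervals (bars), GDSS in blue and Yorkshire in red; open points fell short of the count threshold and dotted lines mark 1.5-fold. The GDSS interval of GLI1 lies wholly above 1.5-fold, while PTCH1 and BOC sit near or across 0 in both libraries.

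The members were then split by which gene they held. In GDSS, GLI1 stood at 31.4 CPM (13 UMIs) in members with HHIP and no ART4, at 16.8 (6 UMIs) in those with both, at 12.2 (7 UMIs) in those with ART4 and no HHIP, and at 6.24 in barcodes within the limits that held neither. The interval with HHIP alone (16.7 to 53.6) lay above that with neither gene (5.25 to 7.37) and overlapped that with ART4 alone (4.91 to 25.1). Over all barcodes within the limits, where 1 UMI of either gene was enough, GLI1 stood at 24.6 (16.5 to 35.4, 29 UMIs) with HHIP and no ART4 and at 6.88 (3.76 to 11.5, 14 UMIs) with ART4 and no HHIP, and these intervals did not overlap. Among members SMO stood at 21.7 with HHIP alone, 33.5 with both and 34.9 with ART4 alone, against 17.1 with neither. With 41 SMO UMIs in all GDSS members, these values do not rank the kinds.

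In Yorkshire GLI1 gave 4 UMIs in members with HHIP alone (30.3 CPM, 8.26 to 77.7) and 0 in both other kinds, against 4.33 CPM in barcodes with neither gene (2.92 to 6.18). The interval with HHIP alone thus lay above that with neither, as in GDSS. Over all barcodes within the limits GLI1 stood at 27.4 (11.8 to 54.0, 8 UMIs in 6 barcodes) with HHIP and no ART4, and gave 0 UMIs in 78 barcodes with ART4 and no HHIP, whose interval reached 9.32. PTCH1 rested on 25 UMIs in all GDSS members and 12 in all Yorkshire members, too few to tell whether the kinds differ. With HHIP alone, with both and with ART4 alone it stood at 21.7, 22.4 and 13.9 in GDSS and at 15.2, 51.1 and 51.3 in Yorkshire, against 9.29 and 15 with neither.

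**Figure D2:**
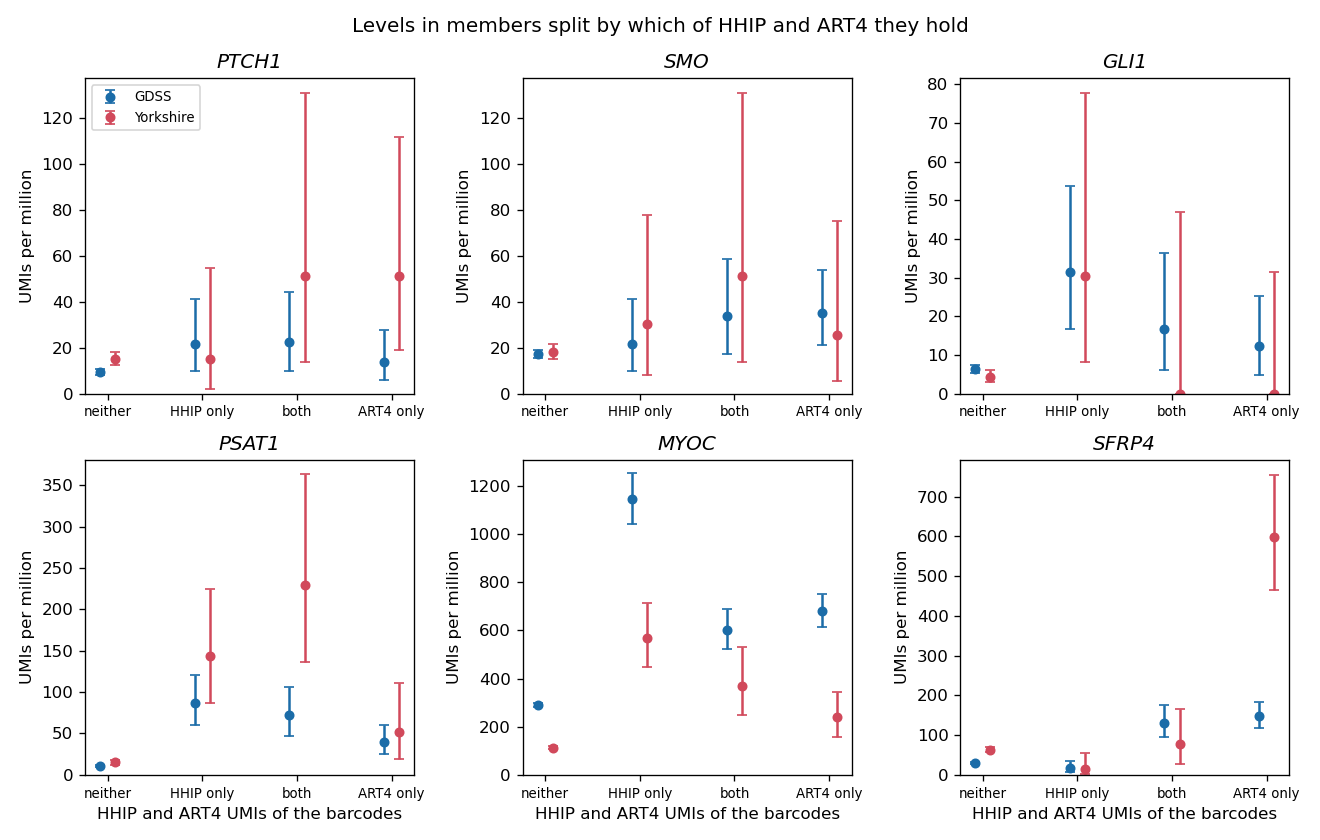
CPM of PTCH1, SMO, GLI1, PSAT1, MYOC and SFRP4 in barcodes within the limits with neither gene and in members with HHIP only, both genes or ART4 only, with exact 95% Poisson intervals, GDSS in blue and Yorkshire in red. GLI1 in GDSS goes from 31.4 with HHIP only to 12.2 with ART4 only, with overlapping intervals, and with HHIP only its interval lies above that with neither gene in both libraries, while SFRP4 is lowest with HHIP only in both libraries.

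PSAT1, the aminotransferase of serine synthesis, was the highest-ranked gene of the members beside those of the rule. It stood at 63.2 CPM in GDSS members and 17.7 in the others (3.56-fold, 2.80 to 4.48), and at 131 against 22.8 in Yorkshire (5.77-fold, 4.07 to 8.01). It was detected in 55 of 278 and 18 of 65 members. Its level by the number of HHIP and ART4 UMIs, the counts that chose the members, is given as a description. With 0, 1, 2, 3 to 4 and 5 or more it stood at 10.3, 36.9, 46.6, 72.0 and 119 CPM in GDSS and at 15.3, 36.5, 38.7, 110.0 and 443 in Yorkshire. The Yorkshire values with 1 and 2 UMIs were near level, and 10 barcodes held 5 or more. Of the members' PSAT1 UMIs, 16.5% in GDSS and 41.9% in Yorkshire lay in 3 members. By kind, PSAT1 was 86.9 and 144 with HHIP alone, 72.7 and 229.8 with both and 40.1 and 51.3 with ART4 alone. Stromal barcodes over the nerve-sheath limit held PSAT1 at 40.6 CPM in GDSS (33.3 to 49.1) and 56.4 in Yorkshire (44.7 to 70.2). Those over the TNMD limit held it at 40.4 (33.3 to 48.5) and 21.9 (15.8 to 29.6). Each value lay below that of the members and above that of barcodes with 0 HHIP and ART4 UMIs. In Yorkshire the interval over the TNMD limit overlapped that with 0 UMIs (12.5 to 18.5). Glia-gated barcodes also held PSAT1, at 89.8 and 151 CPM, so the members were not alone in holding it.

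The list of serine and one-carbon synthesis as a whole did not share this. Of its 24 genes, PSAT1 included, 15 had enough counts in GDSS, 2 of them higher and 3 lower, and 6 in Yorkshire, 1 higher and 1 lower, with list medians of -0.03 and -0.04. Over all genes 7.69% were higher and 3.58% lower in GDSS, and 10.9% and 5.5% in Yorkshire. PHGDH, which catalyses the step before PSAT1, stood at 8.92 against 15.7 CPM in GDSS (0.566-fold, 0.291 to 0.999) and at 18.3 against 15.7 in Yorkshire. SHMT2, which turns serine into glycine in mitochondria, stood at 26.0 against 16.9 in GDSS (1.54-fold, 1.06 to 2.17) and gave 3 UMIs in Yorkshire members. SLC3A2, the heavy chain of amino acid transporters, was lower in both libraries, at 0.634-fold (0.440 to 0.887) and 0.435-fold (0.174 to 0.902).

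SFRP4, a secreted inhibitor of Wnt signalling, stood at 103 against 35.6 CPM in GDSS (2.90-fold, 2.41 to 3.46) and at 238 against 106 in Yorkshire (2.25-fold, 1.76 to 2.83). The sum rested on few barcodes: 26 GDSS and 12 Yorkshire members held any, and the 3 highest held 71.9% and 83.3% of its UMIs. It was 16.9 and 15.2 CPM in members with HHIP alone, below the other stromal barcodes, and 148 and 598 in those with ART4 alone. When only members with 2 or more HHIP UMIs were kept, the log2 ratio turned to -0.58 in GDSS and -2.61 in Yorkshire.

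RBP4, the plasma carrier of retinol, stood at 25.3 against 19.6 CPM in GDSS (1.29-fold, 0.883 to 1.82) and at 48.9 against 20.3 in Yorkshire (2.41-fold, 1.35 to 4.0, 16 UMIs in 10 members). Some other retinoid genes were higher in GDSS. DHRS3, which reduces retinal to retinol, stood at 61.7 against 21.1 in GDSS (2.93-fold, 2.30 to 3.69) and at 30.6 against 38.1 in Yorkshire. RARRES1, a gene induced by retinoic acid, stood at 20.1 against 7.97 in GDSS (2.52-fold, 1.62 to 3.76) and gave 8 UMIs in Yorkshire (2.70-fold, 1.13 to 5.53). In the list of 19 retinoid genes 3 of 13 with enough counts were higher and 3 lower in GDSS, against 7.69% and 3.58% of all genes. In Yorkshire 3 of 7 were higher and 0 lower, against 10.9% and 5.5% of all genes.

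**Figure D3:**
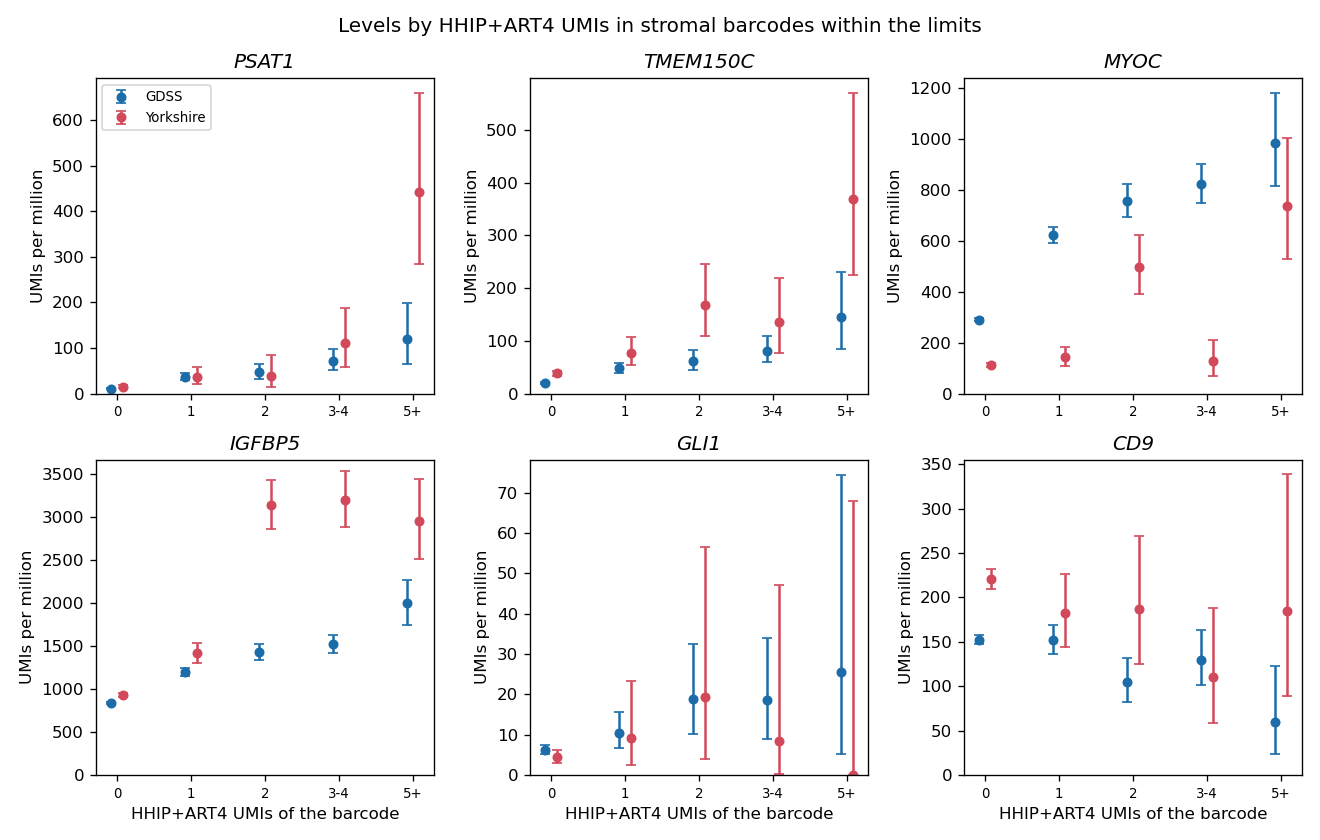
CPM of PSAT1, TMEM150C, MYOC, IGFBP5, GLI1 and CD9 in stromal barcodes within the limits, by their number of HHIP and ART4 UMIs, with exact 95% Poisson intervals, GDSS in blue and Yorkshire in red. PSAT1 goes from 10.3 to 119 in GDSS and from 15.3 to 443 in Yorkshire, while MYOC in Yorkshire does not follow the number, at 497 with 2 UMIs and 127 with 3 to 4.

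Across all genes the members differed from the other stromal barcodes in a minority. In GDSS 599 of 7793 genes were 1.5-fold higher or more and 279 lower, and in Yorkshire 429 of 3927 were higher and 216 lower. Scaled instead by TMM factors, which offset a few very abundant genes, the split turned to 308 higher and 595 lower in GDSS and 268 higher and 400 lower in Yorkshire, and the median log2 ratio of all genes moved from 0.07 to -0.10 and from 0.09 to -0.05. The balance of higher and lower genes therefore depends on the scaling. Of 3923 genes with enough counts in both libraries, 68 (1.73%) were higher in both, 37 (0.943%) lower in both, and 8 went opposite ways. The 68 were 51.1% of the 133 that were higher in GDSS and 15.9% of the 429 that were higher in Yorkshire.

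After PSAT1, the genes ranked by the smaller of both libraries' folds began with TMEM150C. TMEM150C, a membrane protein, stood at 76.5 against 23.5 CPM in GDSS (3.25-fold, 2.62 to 4.0) and at 189 against 41.0 in Yorkshire (4.62-fold, 3.48 to 6.04). It was found in 70 of 278 and 30 of 65 members. HMCN1, the matrix protein hemicentin, was 3.03-fold higher (2.14 to 4.19) in GDSS and 3.67-fold (2.08 to 6.07) in Yorkshire. PI15, a secreted peptidase inhibitor, stood at 138 against 50.8 in GDSS and at 196 against 74.7 in Yorkshire, 2.72-fold and 2.62-fold.

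MYOC, the secreted glycoprotein myocilin, stood at 802 against 319 CPM in GDSS (2.52-fold, 2.36 to 2.68) and at 403 against 103 in Yorkshire (3.93-fold, 3.25 to 4.71). In GDSS 171 of 278 members held it, in Yorkshire 22 of 65. It was highest with HHIP alone, at 1144 and 569, against 681 and 239 with ART4 alone. PAPSS2, which makes the sulphate donor for matrix glycans, was 2.35-fold (1.59 to 3.37) and 2.99-fold (1.67 to 5.0) higher. CCDC80, a secreted matrix protein, stood at 334 against 155 and at 461 against 144, or 2.15-fold (1.95 to 2.37) and 3.20-fold (2.69 to 3.79).

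EPHA3, an ephrin receptor, stood at 37.1 against 13.2 in GDSS (2.82-fold, 2.05 to 3.79) and at 51.9 against 24.4 in Yorkshire (2.13-fold, 1.22 to 3.48). NRP1, a co-receptor for semaphorins and vascular growth factor, stood at 204 against 107 (1.91-fold, 1.69 to 2.16) and at 141 against 69.5 (2.02-fold, 1.47 to 2.72). The other leading genes with a symbol were TAGLN3, PAWR, PRXL2A, CPED1, ATP1B1, FILIP1 and DEPP1, at 1.86-fold to 2.96-fold in GDSS and 1.88-fold to 4.17-fold in Yorkshire. Of these TAGLN3, with 76.9% of its GDSS UMIs in 3 members, and DEPP1, whose 21 Yorkshire UMIs all lay in 3 members, rested on few barcodes.

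The insulin-like growth factor axis was higher in members in part. Of its 13 listed genes, 2 of 8 with enough counts passed 1.5-fold in GDSS and 5 of 7 did in Yorkshire, with 0 lower and medians of 0.32 and 0.79. Over all genes 7.69% and 10.9% were higher, with medians of 0.07 and 0.09. IGFBP5, a binding protein that holds the factor in the matrix, stood at 1516 against 808 CPM in GDSS (1.88-fold, 1.79 to 1.96) and at 3129 against 888 in Yorkshire (3.52-fold, 3.30 to 3.76). It was found in 249 of 278 and 61 of 65 members and differed little between the kinds, from 1264 to 1672 in GDSS and from 2684 to 3511 in Yorkshire. IGF1, the growth factor itself, stood at 57.2 against 18.8 (3.05-fold, 2.37 to 3.87) and at 55.0 against 22.8 (2.42-fold, 1.41 to 3.90). Its receptor IGF1R was 1.18-fold (0.806 to 1.68) and 1.70-fold (1.01 to 2.69) higher.

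Complement genes were higher in part. C3, the central component, stood at 50.5 against 12.3 CPM in GDSS (4.11-fold, 3.13 to 5.34) and at 97.8 against 36.5 in Yorkshire (2.68-fold, 1.81 to 3.85), with 38.2% and 62.5% of its UMIs in 3 members. C4A stood at 29.7 against 9.68 in GDSS (3.07-fold, 2.15 to 4.28) and at 45.8 against 33.5 in Yorkshire (1.37-fold, 0.757 to 2.29), with 62.5% and 60% of its UMIs in 3 members. C7 was 3.63-fold (2.27 to 5.56) in GDSS with 2 UMIs in Yorkshire. CLU, an inhibitor of the terminal complex, was lower, at 185 against 365 (0.507-fold, 0.445 to 0.575) and at 159 against 349 (0.455-fold, 0.339 to 0.598). Of 14 listed genes 4 of 7 with enough counts were higher and 1 lower in GDSS, against 7.69% and 3.58% of all genes. In Yorkshire 2 of 5 were higher and 1 lower, against 10.9% and 5.5% of all genes. One of the 4 in GDSS, C1QA, had all of its 24 UMIs in 2 members.

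A minority of the Wnt genes with enough counts were higher. WNT5A, a ligand of the non-canonical branch, stood at 32.7 against 22.2 in GDSS (1.47-fold, 1.06 to 2.0) and at 70.3 against 33.6 in Yorkshire (2.09-fold, 1.31 to 3.19). WNT5B, its close relative, stood at 16.3 against 6.63 (2.47-fold, 1.51 to 3.84) and at 36.7 against 6.90 (5.32-fold, 2.63 to 9.86, 12 UMIs). CHRDL1, a secreted inhibitor of bone morphogenetic proteins, stood at 50.5 against 27.9 (1.81-fold, 1.39 to 2.32) and at 119 against 60.5 (1.97-fold, 1.39 to 2.72). In the Wnt list of 31 genes, 3 of 13 with enough counts were higher and 2 lower in GDSS, against 7.69% and 3.58% of all genes. In Yorkshire 2 of 7 were higher and 0 lower, against 10.9% and 5.5% of all genes.

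Fat-cell regulators pointed in no common direction, although the series is about intramuscular fat. Of 28 listed genes, 2 of 19 with enough counts were higher and 3 lower in GDSS (median -0.10), against 7.69% and 3.58% of all genes (0.07). In Yorkshire 4 of 14 were higher and 0 lower (median 0.33), against 10.9% and 5.5% of all genes (0.09). EBF2, a factor of adipogenic commitment, stood at 138 against 83.4 in GDSS (1.66-fold, 1.42 to 1.92) and at 153 against 108 in Yorkshire (1.42-fold, 1.05 to 1.88). LPL, the lipase that frees fatty acids from lipoproteins, stood at 295 against 427 (0.690-fold, 0.623 to 0.763) and at 419 against 578 (0.725-fold, 0.607 to 0.859). FABP4, a fatty-acid carrier of adipocytes, was 2.59-fold higher in Yorkshire, where 72 of 79 UMIs lay in 1 barcode, and 1.10-fold in GDSS.

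CD9, a surface tetraspanin whose absence the series' title links to fibro-adipose progenitors, was lower in members in both libraries, at 111 against 189 CPM in GDSS (0.587-fold, 0.495 to 0.691) and at 159 against 273 in Yorkshire (0.583-fold, 0.434 to 0.766). Against others within the limits the folds were 0.726 and 0.728, and barcodes over the TNMD limit held CD9 at 607 and 507 CPM. Among the kinds of member CD9 was 94.1 and 91.0 with HHIP alone and 153 and 282 with ART4 alone. When barcodes were thinned to 1500 UMIs before the choice, the GDSS log2 ratio turned to 0.22. PDGFRA, the receptor that marks these progenitors, stood at 228 against 170 and at 223 against 157, 1.34-fold (1.19 to 1.51) and 1.42-fold (1.11 to 1.80).

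**Figure D4:**
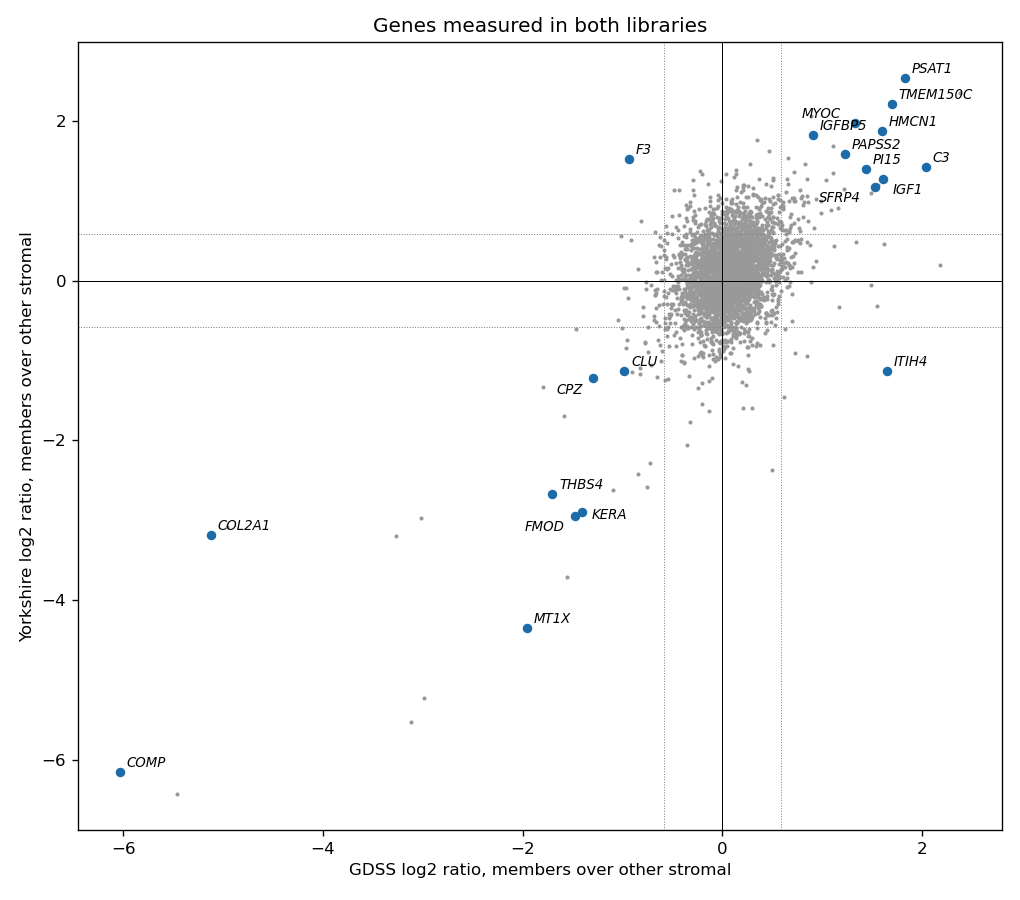
Log2 ratio of members over other stromal barcodes in GDSS (horizontal) and Yorkshire (vertical) for the genes with enough counts in both libraries, HHIP and ART4 left out; dotted lines mark 1.5-fold. PSAT1 and TMEM150C lie at the upper right, tendon and cartilage genes such as COMP at 0.0152-fold in GDSS lie at the lower left, and F3 and ITIH4 lie in opposite corners.

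The genes lowest in members were mostly those of the barcodes that the rule had shut out. COMP, a tendon and cartilage matrix protein, gave 4 UMIs in GDSS members (2.97 against 195 CPM, 0.0152-fold, 0.00415 to 0.0390). In Yorkshire members it gave 0 UMIs against 646 CPM, at least 70.4-fold lower with the 3-count limit. Against others within the limits the GDSS fold was 0.681.

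The collagen-fibril proteoglycans FMOD and KERA behaved alike in GDSS, at 0.359-fold and 0.377-fold against all others and 1.31-fold and 1.05-fold within the limits. In Yorkshire they were 0.130-fold and 0.134-fold, and 0.665-fold and 0.305-fold within the limits. CPZ, a carboxypeptidase that binds Wnt proteins, turned in both libraries, from 0.408-fold and 0.431-fold to 2.17-fold and 1.90-fold higher. COL11A1 and FAM180B in GDSS and FCN2 in Yorkshire also turned. Of the 8 tendon-list genes with enough counts, 7 were lower in each library against all others, and the rule itself used the tendon gene TNMD. Over all genes 3.58% were lower in GDSS and 5.5% in Yorkshire. Against others within the limits 2 of 6 tendon-list genes were still lower in GDSS (median log2 ratio -0.14), beside 257 of 7766 genes. In Yorkshire 4 of 6 were still lower (median -0.87), beside 233 of 3907 genes, and 0 were higher in either library.

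A few genes were lower on either comparison. THBS4, a thrombospondin of tendon and muscle matrix, was 0.308-fold (0.249 to 0.375) in GDSS and 0.158-fold (0.104 to 0.229) in Yorkshire, and 0.464-fold and 0.261-fold within the limits. MT1X, a metallothionein, was 0.257-fold and 0.0492-fold, and 0.455-fold and 0.226-fold within the limits, with 2 UMIs in Yorkshire members. POSTN, the matrix protein periostin, stood at 405 against 693 (0.585-fold, 0.536 to 0.636) and at 397 against 677 (0.586-fold, 0.489 to 0.698), and within the limits at 0.586-fold and 0.492-fold. PTX3, a soluble pattern-recognition protein, was 0.564-fold (0.486 to 0.651) and 0.468-fold (0.334 to 0.639). In the matrix list 2 of 40 genes were higher and 10 lower in GDSS against all others, beside 7.69% and 3.58% of all genes. In Yorkshire 1 of 38 was higher and 10 lower, beside 10.9% and 5.5% of all genes. Against others within the limits 1 of 40 was higher and 7 lower in GDSS, and the list median moved from -0.20 to -0.006. In Yorkshire 2 of 37 were then higher and 8 lower, and the median moved from -0.08 to -0.13.

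Genes most like HHIP were sought among barcodes within the limits that lacked ART4, by the ratio between those with HHIP (269 in GDSS, 64 in Yorkshire) and those without (6522 and 1700). PSAT1 came first with log2 ratios of 2.66 and 2.65. It was followed by SIPA1L1, a regulator of Rap GTPases (1.91 and 2.26), CCN3, a matricellular regulator (1.74 and 2.48), and MYOC (1.68 and 1.52). OLFML2A, CPED1, TMEM150C, SYNE2, NRP1 and MATN2 completed the 10, at 1.20 to 1.55 in GDSS and 1.19 to 1.63 in Yorkshire. Barcodes with HHIP were deeper, with medians of 3884 against 2954 and 4287.5 against 3620.5 UMIs.

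For ART4 the same ranking, added after values were seen, among barcodes without HHIP gave another set of genes. It was led by the smooth-muscle genes ACTA2 (log2 ratios of 2.43 and 2.58), MYH11 (2.11 and 2.82) and TPM2 (1.99 and 1.81), and held SFRP4 (1.44 and 2.18), ANPEP, C3, CFB, ADIRF and CPZ. TMEM150C was the 1 gene in both sets of 10. Among members, the smooth-muscle actin ACTA2 was concentrated in few barcodes, with 87.2% of its UMIs in 3 GDSS members and 85.0% in 3 Yorkshire members. Mural-gated barcodes, outside the stromal gate, also held ART4, in 4.85% (3.06 to 7.24) in GDSS and 2.90% (2.02 to 4.03) in Yorkshire.

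In a ranking added after values were seen, members with HHIP alone and members with ART4 alone were set side by side, and the 10 genes furthest apart in each direction were taken. With HHIP alone PLAU, the urokinase protease, stood at 873 CPM in GDSS against 235 with ART4 alone, and at 303 against 76.9 in Yorkshire. COL15A1, a basement membrane collagen, stood at 1450.1 against 464 and at 523 against 205, and the growth-factor receptor EGFR at 72.4 against 31.4 and at 121 against 34.2. The chemokine CCL2 stood at 2304 against 798 and at 1282 against 513. Among all members 3 barcodes held 34.3% and 65.1% of the PLAU UMIs and 33.7% and 68.3% of the CCL2 UMIs. With ART4 alone MGP, the matrix Gla protein that inhibits calcification, stood at 44682 against 20806 in GDSS and at 32942 against 8205 in Yorkshire. FBLN1, the matrix protein fibulin-1, stood at 537 against 193 and at 607 against 205, and ITGBL1, an integrin-like secreted protein, at 109.8 against 31.4 and at 282 against 68.2. Others of the 20 were FABP5, ANGPTL4, SPARCL1, CSF1 and HMOX1 on the HHIP side and SFRP4, CPZ, ACKR4, COL1A1, RBM26, C1QTNF6 and ACER3 on the ART4 side. These kinds were cut from the members by the same counts that chose them, so the values describe the split.

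Markers of other cells were present in members at levels near those of the other stromal barcodes, with exceptions. Macrophage and leukocyte markers summed to 238 CPM in GDSS members and 113 in the others, and to 214 and 195 in Yorkshire. In GDSS 6 of 7 such genes with enough counts were higher, against 7.69% of all genes. Of the C1QB UMIs, 97.3% lay in 3 of the 278 GDSS members. CD3E, KIT and NKG7 were at 0 there, and 8 of the 14 markers were at 0 in Yorkshire members. When barcodes with 2 or more UMIs of CD68, CD163, CSF1R, C1QA, C1QB, C1QC and TYROBP summed were left out, 274 GDSS and 65 Yorkshire members remained.

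Mural markers summed to 606 against 559 CPM in GDSS, most of it TAGLN, and to 446 against 489 in Yorkshire, where RGS5 was at 0. Of 6 mural markers with enough counts in GDSS 3 were higher and 1 lower, with a median log2 ratio of 0.64: ACTA2 was 2.82-fold (2.25 to 3.5), NOTCH3 2.17-fold (1.35 to 3.34) and RGS5 1.74-fold (1.17 to 2.49). ACTA2 was seen in 13 and RGS5 in 6 of 278 GDSS members, with 87.2% and 87.5% of their UMIs in 3 members. NOTCH3 was spread wider, with 23 UMIs in 20 members. In Yorkshire 0 of 3 were higher and 1 lower. Over all genes 7.69% were higher and 3.58% lower in GDSS, and 10.9% and 5.5% in Yorkshire. Glia markers summed to 859 against 885 and to 1103 against 1204, with SOX10 at 0 in Yorkshire members. Satellite-cell markers summed to 106 against 95.5 and to 168 against 204, endothelial markers to 65.4 against 67.7 and to 119 against 112, and myofibre markers to 219.9 against 291 and to 275 against 488. VWF, MYOG and the erythroid genes were at 0 in members of both libraries. The part of these cells' RNA in the members' values was not tested.

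Between the breeds, members differed in many genes. Of 3885 genes with enough counts in the members (50 or more UMIs over both sums), 475 (12.2%) passed 1.5-fold with GDSS higher and 542 (14%) with Yorkshire higher. CRYAB, a small heat-shock protein, stood at 736 CPM in GDSS members and 36.7 in Yorkshire members (20.1-fold, 11.4 to 39.0), whereas in the other stromal barcodes the fold was 2.74. In GDSS 94 of 278 members held it, in Yorkshire 9 of 65. Of 19 genes of stress during dissociation and of the early transcriptional response with enough counts, 9 passed 1.5-fold towards GDSS members and 0 towards Yorkshire members, DNAJB1 at 2.47-fold in members and 3.37-fold in the others among them.

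Among the 10 genes highest in GDSS members over Yorkshire members, 4 came from few barcodes. CXCL8, a neutrophil chemokine, gave 85 UMIs in GDSS members, 78 of them in 1 barcode, and 0 in Yorkshire members (at least 6.89-fold higher). C1QB, SPP1 and CCL14 had 97.3%, 85.3% and 90.0% of their GDSS UMIs in 3 members. FOLR1, a folate receptor, was 5.68-fold higher in GDSS members (139 against 24.4, 2.83 to 13.4) and 6.77-fold in the others. CD83, a surface protein of activated immune cells, was spread wider, with 75 UMIs in 29 GDSS members and 46.7% in 3. CD83, STXBP6, TMEM128 and BAG2 had 2 UMIs each in Yorkshire members.

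FABP4 ranked first in the Yorkshire direction at 12.5-fold, from the 1 barcode named above. FMO1, a flavin monooxygenase, was also higher in Yorkshire, at 153 against 25.3 CPM in members (6.05-fold, 3.84 to 9.64) and 9.16-fold in the others. GALNT15, which starts O-linked glycans, stood at 238 against 64.6 in members (3.69-fold, 2.68 to 5.06) and was 2.16-fold higher in the others. DPYSL3, a regulator of the cytoskeleton, stood at 125 against 32.7 (3.83-fold, 2.44 to 6.0), against 2.04-fold in the others. CYP1B1, an oxidase of steroids and retinoids, was 4.60-fold higher (2.97 to 7.15), with 83.0% of its Yorkshire UMIs in 3 members, and FABP5 was 3.76-fold higher, with 71 of 84 Yorkshire UMIs in 1 barcode. RDH10, FCHO2, MARC2 and TRIP11 were 3.14-fold to 3.43-fold higher in Yorkshire members and 1.73-fold to 2.05-fold in the others, with 70% of the 30 Yorkshire RDH10 UMIs in 3 members.

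Genes that set the members apart also differed between the libraries. PSAT1 was 2.08-fold higher in Yorkshire members (1.41 to 3.04) and 1.28-fold in the others, and IGFBP5 2.06-fold (1.91 to 2.23) against 1.10-fold. MYOC went the other way, 1.99-fold higher in GDSS members (1.66 to 2.40) and 3.1-fold in the others. Whether these breed differences differ between members and the other stromal barcodes was not tested.

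**Figure D5:**
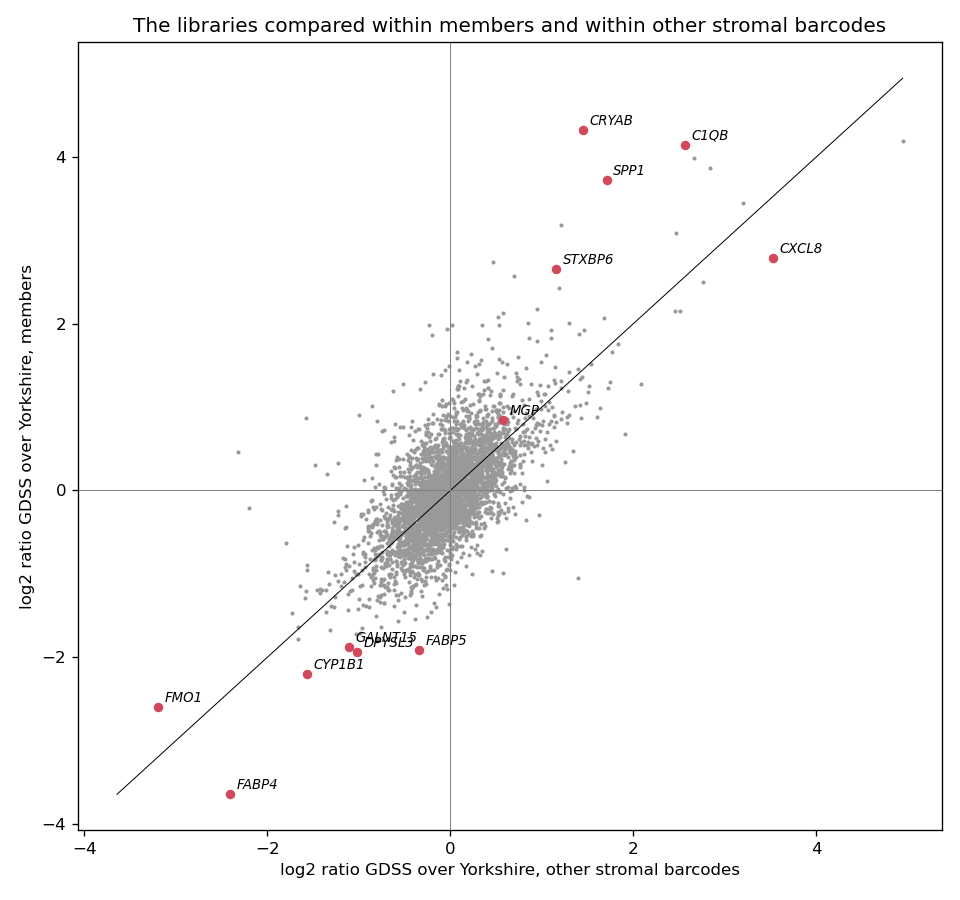
Log2 ratio of GDSS over Yorkshire in members (vertical) against the same ratio in the other stromal barcodes (horizontal) for genes with at least 50 member UMIs; the line marks equal ratios. CRYAB lies far above the line at 20.1-fold in members against 2.74-fold in the others, while FMO1 lies at the lower left in both sets, 6.05-fold higher in Yorkshire members and 9.16-fold higher in the Yorkshire others.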

How the data were processed

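Single-cell RNA sequencing gave 1 library per breed. The deposited matrices hold raw UMI counts per gene and barcode, and the submitters' processing notes name Cell Ranger and R 3.5.2. Per the file headers the matrix software had version 3.1.0. The genome build was not given in the sources used here. Both matrices list 21301 features, 14846 with a symbol, and 680 more were named from a table of pig gene identifiers.

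The members, gene lists and tests were chosen with earlier results of these data known. Limits given as below 3 were read per 10000 UMIs. Counts of a set of barcodes were summed per library and scaled to CPM (per 1000000 UMIs), with exact Poisson, conditional binomial and Clopper-Pearson intervals at 95% that cover counting error only. PCR duplicates are collapsed by UMIs. A gene had enough counts where the members' UMIs plus those predicted from the others' level reached 20, a zero entered a fold as 3 counts, and a call was 1.5-fold. Between breeds the minimum was 50 UMIs over both sums. Other classes were gated outside the stroma at 5 marker UMIs per 10000, and the highest class was taken. Doublets were not removed, since the rule has no such step, and a scrublet score of 0.3 or more was an alternative. The libraries totalled 42093851 GDSS and 54300953 Yorkshire UMIs, with medians of 2768 and 2999 per barcode.

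The text names the genes of the rule and of the label, the hedgehog genes with enough counts, up to 6 genes of other lists by mean change plus those whose role was needed, the 20 highest and 15 lowest genes by the smaller of both libraries' ratios, the 10 most different between breeds in each direction, and the 10 most like HHIP. Rankings skipped SLA, haemoglobin, ribosomal, mitochondrial and sex-linked genes. A few listed genes are not reported here and enter no list count. The ratio script was tested on simulated counts. Tools were Python 3.11.15, numpy 2.4.6, scipy 1.17.1, pandas 2.3.3, scanpy 1.11.5, matplotlib 3.10.9 and R 4.3.3 with edgeR 4.0.16, the last for TMM factors only.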

Additional observations from a re-analysis of the deposited data

Results flagged for a closer look

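For 8 genes the members differed from the other stromal barcodes by at least 1.5-fold in opposite directions in the libraries. With 1 library per breed these differences were not tested. APOA1, a lipoprotein, was 1.54-fold in GDSS and 0.366-fold in Yorkshire, a log2 difference (GDSS minus Yorkshire) of 2.07. ITIH4, a plasma protease inhibitor, was 3.13-fold and 0.455-fold (2.78), and CPE, a carboxypeptidase that processes hormones, 1.66-fold and 0.533-fold (1.64). The contractile genes TPM2 (1.80-fold and 0.521-fold, 1.79) and MYL9 (1.55-fold and 0.654-fold, 1.24) went the same way, and 85.9% of the GDSS TPM2 UMIs lay in 3 members. F3, the tissue factor of coagulation, was 0.523-fold in GDSS and 2.86-fold in Yorkshire (-2.45). FABP5, a fatty-acid carrier, was 0.568-fold and 1.68-fold (-1.56), with 71 of 84 Yorkshire UMIs in 1 barcode, and FDFT1, squalene synthase, 0.627-fold and 1.52-fold (-1.28).

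Outside the stromal gate, mural-gated barcodes with 2 or more HHIP and ART4 UMIs made up 11 of 454 in GDSS (2.42%, 1.22 to 4.29) and 17 of 1173 in Yorkshire (1.45%, 0.846 to 2.31). In macrophage-gated barcodes the count was 1 of 346 and 1 of 164. After thinning to 1500 UMIs the mural shares were 0.297% and 0.189%, from 1 and 2 barcodes.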

How the results depend on the processing

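Limits: there was 1 library per breed, and the members were chosen on their own counts, so no value here has a replicate check. Yorkshire members gave 327246 UMIs, and most single genes of the pathway fell below 20 UMIs there. No paired analysis was possible because each breed has 1 library and no result comes from a test.

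The counts of genes past 1.5-fold depend strongly on the choices. In the order GDSS higher, GDSS lower, Yorkshire higher, Yorkshire lower, both higher and both lower, the main counts were 599, 279, 429, 216, 68 and 37. They were 125, 126, 53, 32, 13 and 7 after thinning to 1500 UMIs, 308, 595, 268, 400, 37 and 66 with TMM scaling, 228, 110, 132, 49, 31 and 19 with a minimum of 50 UMIs, and 5940, 1134, 7184, 1482, 4076 and 202 with none. With 3 or more raw UMIs the Yorkshire counts were 280 and 137 and 45 were higher in both. Members chosen by ART4 gave 220 and 117 in Yorkshire and 35 higher in both, and those chosen by HHIP gave 131 lower in Yorkshire.

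Between breeds, 475 genes were higher in GDSS members and 542 in Yorkshire members. The counts were 295 and 279 with 3 or more UMIs, 70 and 41 after thinning, and 310 and 239 for members chosen by HHIP. They were 219 and 218 with the minimum raised above the main 50 UMIs over both sums, and 1662 and 5301 with no minimum. In the Yorkshire direction they were 1096 with 1 or more UMIs and 320 for members chosen by ART4. The members' share was 9.61% in GDSS and 6.49% in Yorkshire with 1 or more UMIs, 1.44% and 1.40% with 3 or more, and 0.913% and 1.04% after thinning.

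Of 126 gene ratios 1534 alternative values were computed. A turn was counted only where the main ratio was at least 1.5-fold in either direction and the value changed sign. That left 106 ratios with 1280 values, and 15 of these values turned. A further 171 of the 1534 values left the ratio's own 95% interval. Against others within the limits, log2 ratios turned to 0.43 for COL11A1, 1.12 for CPZ, 1.16 for FAM180B, 0.39 for FMOD and 0.068 for KERA in GDSS, and to 0.92 for CPZ and 0.044 for FCN2 in Yorkshire. SFRP4 turned to -0.58 (GDSS) and -2.61 (Yorkshire) when members were chosen by HHIP, and to -0.076 in Yorkshire with 3 or more UMIs. SPP1 in GDSS turned to -0.34 when chosen by HHIP and to -0.36 without barcodes of scrublet score 0.3 or more, where FABP5 between breeds turned to 0.61. CD9 turned to 0.22 in GDSS after thinning and to 0.064 in Yorkshire when chosen by ART4. With no minimum, the median of chondrocyte and bone markers turned to 0.11 in GDSS and that of satellite-cell markers to 0.20 in Yorkshire. The cause was not tested, except that fewer or other barcodes and genes enter each comparison. Leaving out barcodes with macrophage or mural markers, alternatives chosen after seeing the data, turned none of the ratios past 1.5-fold that still had enough counts. A gene that fell short there, such as C1QB, gave no value and so could not turn. The mural markers ACTA2, NOTCH3 and RGS5 were not among the 126 ratios. These alternatives therefore leave such markers unchecked.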

Other observations

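Other groups of genes were described in the members by the same counts. IL6, the inflammatory cytokine, stood at 164 CPM in GDSS members against 44.8 in the others (3.66-fold, 3.16 to 4.23), with 55.7% of its UMIs in 3 members, and at 30.6 against 19.6 in Yorkshire (1.56-fold, 0.735 to 2.92). PI16, a marker of adventitial progenitors, stood at 187 against 114 in GDSS (1.64-fold, 1.44 to 1.87) and at 162 against 139 in Yorkshire (1.16-fold, 0.868 to 1.53). ITGA8, an integrin subunit, stood at 16.3 against 6.26 (2.61-fold, 1.60 to 4.07) and at 30.6 against 9.82 (3.11-fold, 1.45 to 5.95, 10 UMIs). GGT5, which breaks down glutathione conjugates, was 2.18-fold in both libraries, from 20 and 7 member UMIs.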
